A study of Mus musculus with 12 samples.

Results

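Across the 19 autosomes, 2646 of 59675 merged H3K9me2 regions carried a peak in brown adipose tissue (BAT) of mice on a high-fat diet (HFD) and in white adipose tissue (WAT) of mice on a standard chow diet (SCD), and no peak in SCD BAT or HFD WAT. Read by diet, these regions had a listed peak under HFD but not SCD in BAT, and under SCD but not HFD in WAT, and they are called BAT-gained/WAT-lost regions here, where gained and lost mean only that a peak was or was not listed. The opposite pattern, a peak in SCD BAT and HFD WAT and in neither of the other lists, was found at 866 regions, called BAT-lost/WAT-gained regions. Both sets were chosen by the presence of H3K9me2 peaks with a score of at least 50, so their H3K9me2 presence and scores are given as a description, while position, base composition and H3K9me3 peaks played no part in the choice.

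The study immunoprecipitated chromatin marked at lysine 9 of histone H3 from BAT and subcutaneous WAT of wild-type C57BL/6J mice and sequenced the DNA (ChIP-seq). HFD mice received a diet with most of its calories from fat from 6 weeks of age for 12 weeks, and SCD mice received chow over the same time. Each diet, tissue and mark had 1 library, giving 8 peak lists beside 4 input libraries that were not analysed here, so no difference between diets or tissues could be tested against replicates. The marks are named as the libraries are labelled, although the study's methods pair the H3K9me2 libraries with an antibody described as recognising trimethylated lysine 9 and the H3K9me3 libraries with one described as recognising the dimethylated form, and peak lists hold no expression with which the tissue labels could be checked.

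Dimethylation of histone H3 lysine 9 (H3K9me2) is a repressive mark, deposited mainly by the enzymes G9a and GLP, that occurs over silent stretches of chromatin including genes. Trimethylation of the same residue (H3K9me3) is bound by HP1 proteins and is typical of constitutive heterochromatin and repeated DNA. BAT burns fuel to make heat, WAT stores fat as triglyceride, and removal of H3K9 methylation has been linked to the brown fat gene programme.

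The H3K9me2 lists held 42401 autosomal peaks in HFD BAT, 23626 in SCD BAT, 20790 in HFD WAT and 20904 in SCD WAT at a score of at least 50, with the score taken as a scaled negative log10 p-value of the peak caller. The H3K9me3 lists held 50303, 25126, 27682 and 7531 peaks in the same order. The 2 SCD WAT lists had been deposited down to a score of 30, against about 50 in the other 6. Sequencing depth is not given in the files, so the length of a list cannot be told apart from its depth.

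The sequences under the strongest BAT-gained/WAT-lost regions show what kind of DNA they cover. Ranked by the lower of the 2 H3K9me2 scores, 3 of the first 4 lay at chr4:3005519-3013923, chr1:63676138-63677765 and chr7:46528424-46532709 of mm9, each shown as the 120 bases at the middle of its peaks on the plus strand. The first lies between genes, with Vmn1r2, a vomeronasal receptor gene, as the nearest, 85254 bp away, and starts close to the first assembled base of the chromosome, 3000001. The second lies in an intron of Dytn, the dystrotelin gene, and the region of chromosome 7 between genes, nearest to Gm16387. Capitals mark CpG in the Vmn1r2 and Gm16387 windows and, in the Dytn window, the 12-base word found there most often, with 5 copies.
Vmn1r2 (chr4:3010443-3010562): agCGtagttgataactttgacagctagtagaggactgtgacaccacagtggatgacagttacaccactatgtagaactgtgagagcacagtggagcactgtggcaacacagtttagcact
Dytn (chr1:63676997-63677116): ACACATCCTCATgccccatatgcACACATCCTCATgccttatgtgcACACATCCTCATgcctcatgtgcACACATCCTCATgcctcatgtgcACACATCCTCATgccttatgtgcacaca
Gm16387 (chr7:46530073-46530192): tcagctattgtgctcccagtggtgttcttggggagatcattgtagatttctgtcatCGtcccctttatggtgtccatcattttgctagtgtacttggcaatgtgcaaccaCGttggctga

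A further region of the first 10, in an intron of Csmd2 and chosen for printing after its sequence was seen, was built of copies of the 6-base unit CTCCTG, in capitals, with 15 in the window. The window of a BAT-lost/WAT-gained region over the start site of Ywhaq, which encodes a 14-3-3 protein, held 17 CpG. That of Acly, a BAT-gained/WAT-lost region over a gene start, held 6, both with CpG in capitals. The Ywhaq and Acly windows were also chosen after their values were seen. A window at Olfm1, also BAT-gained/WAT-lost and over a start site but not printed, held 17 as well, so such a count was not particular to either set.
Csmd2 (chr4:127898867-127898986): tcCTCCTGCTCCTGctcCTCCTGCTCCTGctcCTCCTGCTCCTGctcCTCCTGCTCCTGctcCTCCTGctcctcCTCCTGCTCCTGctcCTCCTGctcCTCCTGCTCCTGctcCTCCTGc
Acly (chr11:100388764-100388883): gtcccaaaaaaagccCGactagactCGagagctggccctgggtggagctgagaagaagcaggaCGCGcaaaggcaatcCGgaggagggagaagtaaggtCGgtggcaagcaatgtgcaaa
Ywhaq (chr12:21422983-21423102): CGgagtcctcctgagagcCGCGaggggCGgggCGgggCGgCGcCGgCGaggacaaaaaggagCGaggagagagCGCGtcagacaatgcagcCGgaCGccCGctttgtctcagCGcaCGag

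The BAT-gained/WAT-lost regions made up 4.43% of all merged regions and the BAT-lost/WAT-gained regions 1.45%. Among the 6 patterns of exactly 2 lists, only the pair of BAT lists was more frequent, at 3772 regions, and the other 3 pairs had 807 to 938. The HFD BAT list alone accounted for 21971 regions, and 7667 regions had a peak in all 4 lists. With the same number of peaks from each list, 20790 with the highest scores first, the 2 patterns came closer, at 1661 BAT-gained/WAT-lost and 1321 BAT-lost/WAT-gained regions. With peaks as deposited, down to a score of 30 in SCD WAT, they moved apart, at 5962 and 480.

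**Figure D1:**
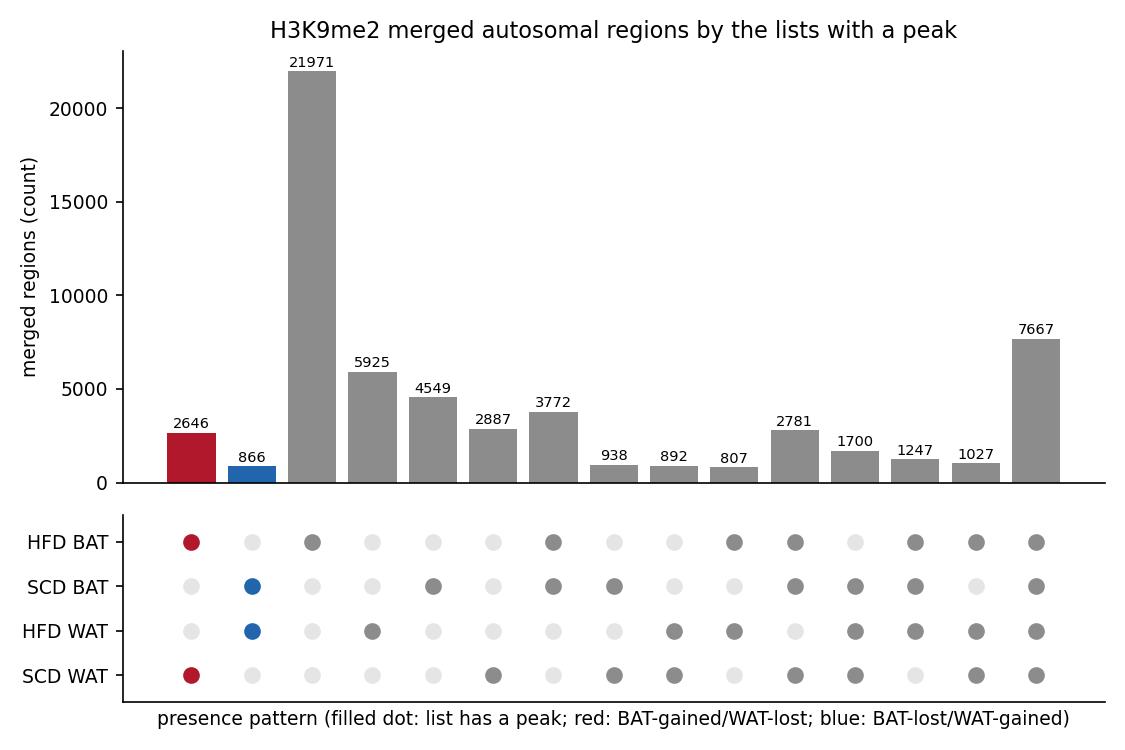
Number of merged autosomal H3K9me2 regions (bars) for each of the 15 combinations of lists with a peak (filled dots). The 2646 BAT-gained/WAT-lost regions (red) outnumber the 866 BAT-lost/WAT-gained regions (blue), and 21971 regions had a peak in HFD BAT alone.

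Only overlapping or touching peaks were merged, so the direct overlap of HFD BAT and SCD WAT peaks in every BAT-gained/WAT-lost region follows from the rule. Of the 2646 regions, 2605 consisted of 1 peak of each list. The score had a median of 84.7 in HFD BAT, with a range of 50 to 1635, and of 70.2 in SCD WAT, with a range of 50 to 3100. The higher of the 2 scores was that of HFD BAT at 1705 regions and that of SCD WAT at 937. Most regions were thus weak, with a median of 62.9 for the lower score and only 558 regions (21.1%) at 80 or more in both lists.

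Listed peaks of SCD BAT and HFD WAT were mostly more than 1 kb away from the BAT-gained/WAT-lost regions. Both lists were used to choose the regions and end at a score of 50, so weaker peaks could not be seen. The distances are therefore a description only. The nearest SCD BAT peak lay a median of 19364 bp from a BAT-gained/WAT-lost region and the nearest HFD WAT peak 31933 bp, and a peak of those lists lay within 1 kb of 5.18% and 2.31% of regions. At the threshold, the regions just inside included those at Sh3bp1 (62.65 in HFD BAT, 50.01 in SCD WAT) and near Cyyr1 (96.77, 50.02), and just outside stood Arhgap27 (130.69, 49.99), Anks1 (97.55, 49.99) and Ept1 (59.76, 49.96). A further 3317 regions would have had the pattern through SCD WAT peaks with a score under 50.

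By position, the BAT-gained/WAT-lost regions were close to the merged regions as a whole at promoters, and their coding exon share was higher, as it was in some other patterns with an HFD BAT peak. A region counts as a promoter region where it comes within 3 kb of an annotated transcription start of a protein-coding gene. Of the BAT-gained/WAT-lost regions, 799 (30.2%, exact 95% interval 28.5 to 32.0) touched a promoter, against 393 (45.4%, 42.0 to 48.8) of the BAT-lost/WAT-gained regions and 30.9% of all merged regions. All such intervals cover counting error only, and regions of 1 pair of libraries are not replicates of a diet.

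Within gene bodies the 2 patterns stood apart. Away from promoters, 210 BAT-gained/WAT-lost regions (7.94%, 6.93 to 9.03) had their middle in a coding exon and 654 (24.7%, 23.1 to 26.4) in an intron. Of the BAT-lost/WAT-gained regions 11 (1.27%, 0.636 to 2.26) and 78 (9.01%, 7.18 to 11.1) did, and of all merged regions 5.20% and 23.1%. The intervals of the 2 patterns did not overlap for either class, and that of the coding exons also stood above the share of all merged regions. Regions in HFD BAT alone had 7.13% in coding exons and 32.8% in introns, and those in the 2 BAT lists 7.34% and 24.6%, so these shares were not particular to the BAT-gained/WAT-lost pattern. Intergenic regions made up 944 (35.7%) and 383 (44.2%) of the 2 patterns, and 39.7% of all.

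Promoter regions of the 2 patterns also sat differently around the start site. Among the 799 BAT-gained/WAT-lost promoter regions, 468 (58.6%) covered a start site, 225 (28.2%) lay wholly downstream and 106 (13.3%) wholly upstream of the nearest one. Among the 393 BAT-lost/WAT-gained promoter regions, 360 (91.6%) covered a start site, 18 (4.58%) lay downstream and 15 (3.82%) upstream. All merged promoter regions fell between them, with 67.0% over a start site and 20.4% downstream. With 1 start site per gene, its most upstream one, the promoter share was 18.4% for BAT-gained/WAT-lost and 41.7% for BAT-lost/WAT-gained regions, so many of the BAT-gained/WAT-lost promoter regions were at start sites inside a gene.

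**Figure D2:**
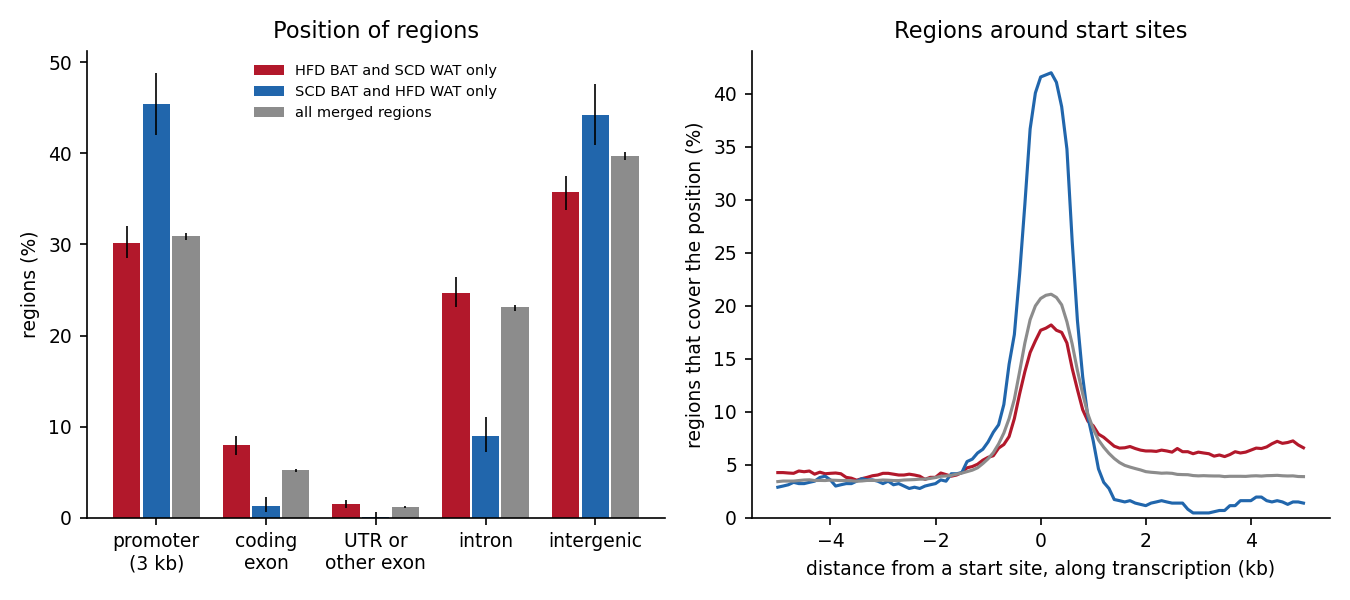
Left, percentage of regions by position, with exact 95% intervals. Right, percentage of regions that cover each position from 5 kb before to 5 kb after a start site along the direction of transcription. BAT-lost/WAT-gained regions (blue) stand at 41.6% over the start site itself, against 17.7% of BAT-gained/WAT-lost regions (red) and 20.7% of all merged regions (grey), and at 2 kb downstream the red curve is at 6.31%, the blue at 1.15% and the grey at 4.36%.

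In base composition the BAT-gained/WAT-lost regions were close to all merged regions, richer in GC and CpG than the autosomes, and poorer in CpG than the BAT-lost/WAT-gained regions. Their median GC content was 56.5%, against 59.2% in BAT-lost/WAT-gained regions, 55.7% in all merged regions and 41.9% in the autosomes. The ratio of observed to expected CpG, which is low in methylated bulk DNA and high in CpG islands, had a median of 0.321, 0.553 and 0.328 in the 3 sets, and 0.194 in the autosomes. It reached 0.6 at 400 BAT-gained/WAT-lost regions (15.1%), 387 BAT-lost/WAT-gained regions (44.7%) and 20.7% of all. At promoters alone the medians were 0.414 for BAT-gained/WAT-lost and 0.771 for BAT-lost/WAT-gained regions, against 0.613 for promoter regions outside the BAT-gained/WAT-lost set. The gap was thus also present among promoter regions. Their place around the start site differed between the patterns, and the part of that place in the gap was not tested.

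Short motifs differed in the order of the sets. The GC box GGGCGG, read on both strands in the 300 bases at the middle of the peaks, occurred at 22.2% of BAT-gained/WAT-lost, 53.3% of BAT-lost/WAT-gained and 26.0% of all merged regions. CCAAT occurred at 22.5%, 24.7% and 27.0%, TATAAA at 2.08%, 1.5% and 4.68%, and the E-box CACGTG at 8.09%, 4.85% and 6.60%. Among these sets the GC box was thus most frequent in the BAT-lost/WAT-gained regions and the E-box in the BAT-gained/WAT-lost regions. Neither was particular to its set. The GC box stood at 72.4% in regions of SCD BAT, HFD WAT and SCD WAT, and the E-box at 8.03% in the pair of BAT lists. These matches describe letters and not binding.

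Many of the strongest BAT-gained/WAT-lost regions were tandem repeats, as were many of the strongest regions of some other patterns. A 300-base window is called a tandem repeat here if at least 75% of its bases match the window shifted by some period of 2 to 100 bases. Such windows were found at 375 BAT-gained/WAT-lost regions (14.2%, 12.9 to 15.6), 3 BAT-lost/WAT-gained regions (0.346%, 0.0715 to 1.01) and 6.02% of all merged regions. Of the 10 regions with the highest lower score, 6 had one, and of the first 100, 51 did (exact 95% interval 40.8% to 61.1%), against 0 of the first 100 BAT-lost/WAT-gained regions, which allows a share of up to 3.62%.

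Repeats were not particular to the BAT-gained/WAT-lost pattern. Regions with a peak in HFD WAT alone had them at 0.895%, against 15.7% of regions in SCD WAT alone. The share was 1.73% for regions in HFD BAT and HFD WAT and 20.8% for those in HFD BAT, SCD BAT and SCD WAT. Patterns with both WAT lists varied. The share was 9.53% in the pair of WAT lists, 10.3% with HFD BAT added, 1.29% with SCD BAT added and 5.37% in all 4 lists. Of the first 100 regions by lowest score, 74 had one in the pattern of HFD BAT, SCD BAT and SCD WAT and 52 in that of the 2 BAT lists, beside the 51 of the BAT-gained/WAT-lost regions. Windows with at least 5 copies of CTCCTG on 1 strand occurred at 91 BAT-gained/WAT-lost regions (3.44%, 2.78 to 4.21), against 1 BAT-lost/WAT-gained region (0.115%) and 0.665% of all merged regions. This unit was read from the strongest BAT-gained/WAT-lost regions themselves, which favours that set, so these shares are a description only. The authors removed reads that mapped to several sites, and the part of this filter in the repeat shares was not tested.

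**Figure D3:**
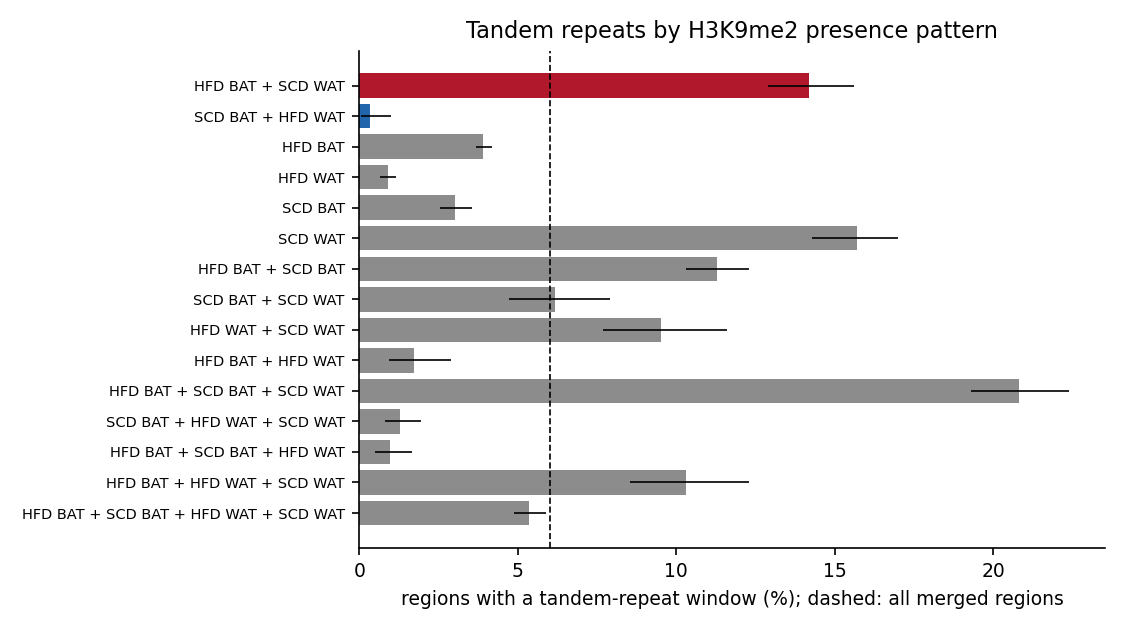
Percentage of merged H3K9me2 regions with a tandem-repeat window for each combination of lists, with exact 95% intervals. BAT-gained/WAT-lost regions (red) stand at 14.2%, BAT-lost/WAT-gained regions (blue) at 0.346% and all merged regions (dashed line) at 6.02%.

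The single strongest regions illustrate this. The Dytn region had an H3K9me2 score of 663.75 in HFD BAT and 472.69 in SCD WAT, and its window matched itself at 94.6% with a period of 23 bases. The Csmd2 intron region (321.71 in HFD BAT, 294.37 in SCD WAT) and the region nearest to Tas2r134, a bitter taste receptor gene (410.19, 256.59), matched at 88.1% and 90.9% with a period of 15, and that nearest to Hephl1, a hephaestin-like gene (505.28, 336.02), at 89.2% with a period of 60. A region 2385 bp from a start site of 9230019H11Rik reached 3100 in SCD WAT, the highest score of the set, and 256.82 in HFD BAT, with a period of 74 bases. The Dlgap2 intron region (426.87, 681.75), Dlgap2 being a postsynaptic scaffold gene, completed the 6 with a period of 31.

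The other 4 of the first 10 were not tandem repeats by this measure. The region nearest to Vmn1r2 had 792.64 in HFD BAT and 1543.32 in SCD WAT, that nearest to Gm16387 had 518.2 and 338.8, that nearest to Olig3, an oligodendrocyte transcription factor gene, had 607.67 and 271.25, and an intron region of Flg2, a filaggrin-like skin protein gene, had 673.09 and 269.84. The 3 widest regions spanned 14763 bp at chr17:3006381-3021143, 12305 bp at chr4:154214840-154227144 near Ttc34 and 8963 bp in Flg2. The Ttc34 region had the highest HFD BAT score of the set, 1635.34, beside only 71.89 in SCD WAT. All of the first 10 had an H3K9me3 peak in SCD WAT and none had one in SCD BAT.

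**Figure D4:**
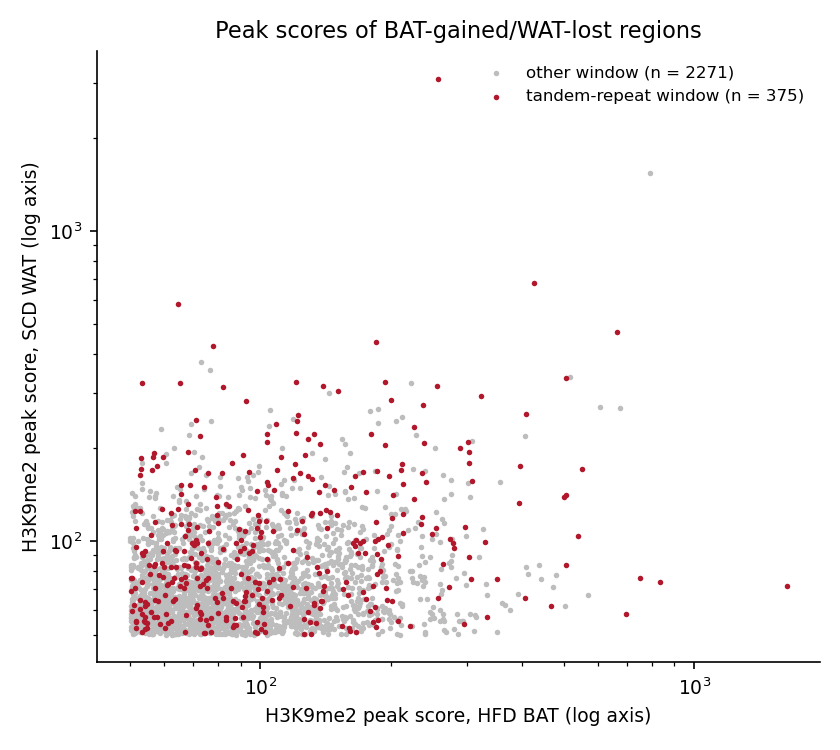
H3K9me2 peak scores of the 2646 BAT-gained/WAT-lost regions in HFD BAT (horizontal, log axis) and SCD WAT (vertical, log axis), with the 375 regions that had a tandem-repeat window in red. The medians are 84.7 and 70.2, and of the 100 regions with the highest lower score 51 are red.

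H3K9me3 was measured in separate libraries and was not used to choose the regions. Both marks of a diet and tissue stood beside the same input library, and the part of shared chromatin or input in their overlap was not tested. A peak of H3K9me3 with a score of at least 50 was present in HFD BAT at 1933 BAT-gained/WAT-lost regions (73.1%, 71.3 to 74.7), against 52.9% of all merged regions, and in SCD BAT at 722 (27.3%, 25.6 to 29.0), against 36.3%. In WAT it was present at 1109 (41.9%, 40.0 to 43.8) in HFD, against 33.4% of all, and at 586 (22.1%, 20.6 to 23.8) in SCD, against 9.25%. In both lists that define the pattern the share was therefore above that of all merged regions, in SCD BAT it was below, and in HFD WAT it was above. Regions with H3K9me2 in HFD BAT alone, the largest pattern, had H3K9me3 in HFD BAT at only 23.3%. The other patterns of 2 lists had it there at 55.9% to 88.7%, and only the pair of BAT lists was below 73.1%. In SCD WAT those patterns had it at 0.577% to 11.8%, whereas regions in HFD BAT, SCD BAT and SCD WAT had it at 30.1%.

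Read by diet within a tissue, H3K9me3 went the way of H3K9me2 in BAT, and in WAT its direction depended on the length of the lists. In BAT, 1264 BAT-gained/WAT-lost regions (47.8%) had an H3K9me3 peak in HFD and not SCD and 53 (2%) in SCD and not HFD, against 19.6% and 3.05% of all merged regions. In WAT, with the full lists, 754 (28.5%) had one in HFD and not SCD and 231 (8.73%) in SCD and not HFD, against 27.5% and 3.33% of all. The WAT count thus leaned to HFD, the diet without an H3K9me2 peak, as it did among all merged regions, and the SCD WAT H3K9me3 list was the shortest. With lists of equal length the WAT order turned, at 10.8% of regions with a peak in HFD and 22.1% in SCD.

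The BAT-lost/WAT-gained regions had a different H3K9me3 profile. Of them 87.0% had a peak in HFD BAT, 93.1% in SCD BAT, 57.2% in HFD WAT and 0.577% in SCD WAT. In BAT 4.39% had H3K9me3 in HFD and not SCD and 10.5% in SCD and not HFD, the opposite lean to the BAT-gained/WAT-lost regions. In WAT 57.0% had it in HFD and not SCD.

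The H3K9me3 shares depended strongly on list length. When each H3K9me3 list was limited to its 7531 highest peaks, the share of BAT-gained/WAT-lost regions with a peak was 3.17% in HFD BAT, 0.491% in SCD BAT, 10.8% in HFD WAT and 22.1% in SCD WAT, against 12.5%, 12.7%, 12.0% and 9.25% of all merged regions. Both BAT shares then stood below those of all merged regions. HFD stayed above SCD in BAT, whereas in WAT the order turned, with SCD above HFD.

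**Figure D5:**
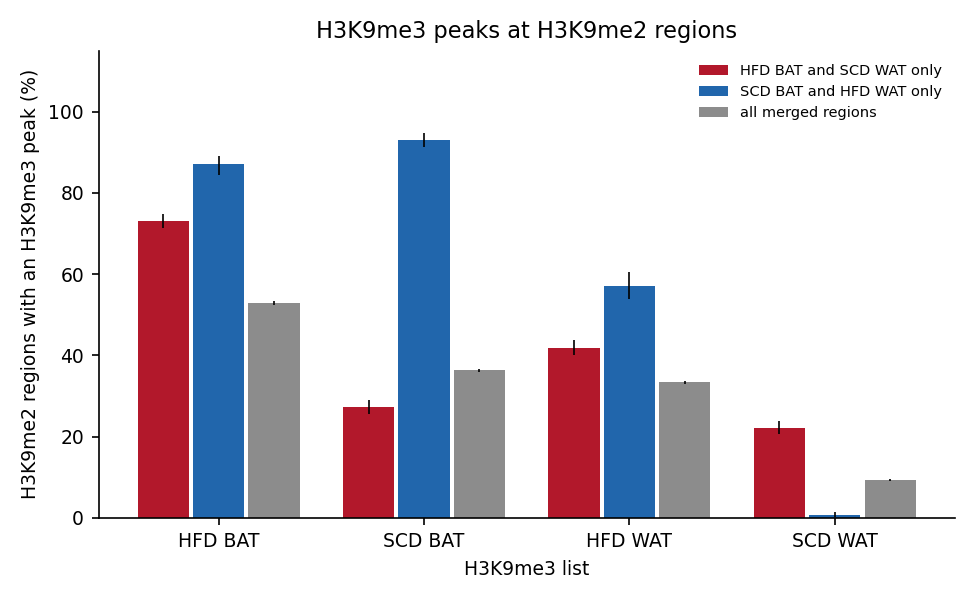
Percentage of H3K9me2 regions with an H3K9me3 peak in each of the 4 H3K9me3 lists, with exact 95% intervals. BAT-gained/WAT-lost regions (red) stand at 73.1% in HFD BAT, 27.3% in SCD BAT, 41.9% in HFD WAT and 22.1% in SCD WAT, and BAT-lost/WAT-gained regions (blue) at 0.577% in SCD WAT.

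Stronger H3K9me2 regions carried H3K9me3 more often. With the BAT-gained/WAT-lost regions split into 4 equal sets from the lowest to the highest lower H3K9me2 score, the share with an H3K9me3 peak in HFD BAT was 62.8%, 69.8%, 76.9% and 82.8%, and in SCD WAT 11.6%, 16.3%, 22.2% and 38.4%. The rise was not limited to the lists that define the pattern. In HFD WAT, which had no H3K9me2 peak at these regions, the share was 34.0%, 34.7%, 43.3% and 55.6%. In SCD BAT it moved little, between 24.1% and 29.9%. Tandem-repeat regions had H3K9me3 in SCD WAT at 52.5%, against 17.1% of the other BAT-gained/WAT-lost regions, and in SCD BAT at 13.6%, against 29.5%. In HFD WAT the shares of tandem-repeat and other regions were 56.0% and 39.6%, and in HFD BAT 66.1% and 74.2%. Merged regions outside the set differed in the same directions in SCD WAT (36.6% of tandem-repeat regions and 6.98% of the others). They also did in SCD BAT (29.2% and 37.2%) and HFD WAT (39.7% and 32.6%), but not in HFD BAT (53.2% and 51.8%). At promoters, 86.0% of BAT-gained/WAT-lost regions had H3K9me3 in HFD BAT, 40.3% in SCD BAT, 33.9% in HFD WAT and 10.4% in SCD WAT, against 73.4%, 60.9%, 41.0% and 7.44% of promoter regions outside the set. The HFD WAT share at promoters was thus below that of other promoter regions, whereas over all positions it was above that of all merged regions.

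The same pattern in all 4 lists of both marks was rare. It was seen at 94 BAT-gained/WAT-lost regions (3.55%, 2.88 to 4.33), against 0.783% of all merged regions, and the opposite H3K9me3 pattern at 12 (0.454%). The first of these H3K9me3 patterns was about as frequent, at 3.42%, in regions with H3K9me2 in HFD BAT, SCD BAT and SCD WAT. It was thus not particular to the BAT-gained/WAT-lost regions. Its share was 2.04% in the pair of BAT lists, 1.73% in SCD WAT alone and lower in the remaining H3K9me2 patterns. Of the BAT-lost/WAT-gained regions 44 (5.08%) had their own pattern in H3K9me3, against 0.928% of all merged regions. Among the 94, ranked by the lower H3K9me2 score, were the regions nearest to Olig3 (H3K9me3 score 402.19 in HFD BAT, 89.88 in SCD WAT), in Flg2 (274.18, 277.73), at 9230019H11Rik (1413.87, 3100) and nearest to Rnf19b (284.46, 171.36).
The next were nearest to Mrfap1, Tacc1, Myom2 and Cbr3, at the promoter of Stk11, the gene of the kinase LKB1 upstream of AMPK (H3K9me3 score 216.55 in HFD BAT, 52.94 in SCD WAT), and nearest to Alkbh5, an RNA demethylase gene. None of these had a peak of either mark in SCD BAT or HFD WAT.

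Of 21418 autosomal protein-coding genes, 831 (3.88%) had a BAT-gained/WAT-lost region at a promoter and 459 (2.14%) a BAT-lost/WAT-gained region, and 12 had both. At 434 of the 831 genes (52.2%) no promoter of the gene had a peak in SCD BAT or HFD WAT, and 50 genes had more than 1 BAT-gained/WAT-lost region. At the remaining genes another start site or a neighbouring region carried a peak in one of those lists. Among the listed genes below with a BAT-gained/WAT-lost promoter region, only Ebf2, Tie1, Acly, Tsc1, Rps6kb2, Wnt3 and Rxrg had no such peak. Several of the listed genes had their region at a start site inside the gene, among them Klf15, Zfp423, Vwf, Rxra, Dvl1, Wnt7a, Pik3r2 and Tnfrsf1a. The shares of the gene lists below are read against 3.88% and 2.14%. Those are shares of all genes, of which 63.6% had any merged region at a promoter. Many lists were covered more fully, such as 47 of 48 Wnt signalling and 28 of 30 insulin and mTOR genes, and some were not, such as 12 of 19 white adipocyte genes. The part of this coverage in the shares was not tested. The lists were chosen with earlier results of these data known.

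The lists with the highest shares of genes with a BAT-gained/WAT-lost promoter region were white adipocyte and adipogenesis genes, endothelial markers and lipogenesis genes, each with only 2 to 4 such genes. Of 19 white adipocyte and adipogenesis genes, 4 had one (21.1%), namely Ebf2, Klf15, Srebf1 and Zfp423. Of 10 endothelial markers, 2 did (20%), Tie1 and Vwf, and of 20 genes of lipogenesis and triglyceride synthesis, 3 did (15%), namely Fasn, Acly and Srebf1. The BAT-lost/WAT-gained count was 1 in each list, Kdr among the endothelial markers and Srebf1 in the other lists.

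Fasn encodes fatty acid synthase, and 2 regions lay at different annotated starts inside the gene. One covered a start, at chr11:120668750-120670792, and scored 62.12 in HFD BAT and 66.79 in SCD WAT. The other lay 1100 bp upstream of another start, at chr11:120672115-120674767, and scored 241.7 and 65.03. Both regions also had H3K9me3 in HFD BAT (95.18 and 193.04) and in HFD WAT (128.45 at each).
Acly encodes ATP citrate lyase, which makes the acetyl-CoA used in fat synthesis, and its region covered the gene's 5' end at chr11:100388262-100389548. It scored 58.64 in HFD BAT and 106.11 in SCD WAT, and its H3K9me3 peak was in HFD BAT alone, at 284.03. The window printed above comes from this region.

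Srebf1, the gene of the lipogenic transcription factor SREBP-1, carried both patterns at different start sites. A region over an internal start site, at chr11:60016108-60017392, scored 94.94 in HFD BAT and 110.48 in SCD WAT, and a second one downstream of the gene scored 59.35 and 87.93. Another, at chr11:60023570-60024467, had the opposite pattern, with 59.22 in SCD BAT and 70.12 in HFD WAT. No single direction therefore holds for this gene.
The 3 regions also differed in H3K9me3. Both BAT-gained/WAT-lost regions had a peak in HFD BAT alone, at 175.03 and 65.36, and the third had 130 in HFD BAT and 105.64 in SCD BAT.

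Transcription factors of the adipocyte lineage had single promoter regions. Ebf2, listed with the adipogenesis genes and known as a factor of brown preadipocytes, scored 57.78 in HFD BAT and 87.69 in SCD WAT. Klf15, a regulator of adipocyte and amino acid metabolism, scored 124.78 and 61.55, and Zfp423, a preadipocyte factor, scored 164.05 and 54.54. The Klf15 and Zfp423 regions lay at start sites inside the genes, and other promoters of both genes had a peak in SCD BAT or HFD WAT. Zfp423 held 5 BAT-gained/WAT-lost regions among 21 merged regions within its 298 kb, the largest number of any listed gene.
Prdm16, a coregulator that directs brown fat identity and belongs to a family of histone methyltransferases, was the only one of 28 brown adipocyte and thermogenesis genes (3.57%) with a promoter region. It scored 98.69 in HFD BAT and 112.65 in SCD WAT over an internal start site, 1 BAT-gained/WAT-lost region among 30 merged regions in the gene.

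Enzymes that act on the mark had few. Of 9 H3K9 demethylase genes 1 did, Kdm4b, with 283.87 in HFD BAT and 58.44 in SCD WAT at 2097 bp from a start site and H3K9me3 of 321.98 in HFD BAT and 52.2 in HFD WAT. Of 8 H3K9 methyltransferase genes Prdm16 had a BAT-gained/WAT-lost and Setdb1 a BAT-lost/WAT-gained region (93.39 in SCD BAT, 77.89 in HFD WAT). Each count is 1 gene.

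In insulin and mTOR signalling 3 of 30 genes (10.0%) had a BAT-gained/WAT-lost region. Pik3r2, a regulatory subunit of PI3-kinase, had 2, of which the stronger scored 274.25 in HFD BAT and 86.53 in SCD WAT. Tsc1, a subunit of the complex that restrains mTORC1, scored 59.75 and 104.69 over its 5' start site, and Rps6kb2, a ribosomal S6 kinase gene, 97.75 and 67.4. Gsk3b, encoding glycogen synthase kinase 3 beta, had the opposite pattern, with 65.2 in SCD BAT and 135.27 in HFD WAT.

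In Wnt signalling 3 of 48 genes (6.25%) had one. Dvl1, which relays the Wnt signal from the receptor, scored 214.87 in HFD BAT and 126.71 in SCD WAT, the highest lower score of any listed gene. The ligand genes Wnt3 (61.7, 88.36) and Wnt7a (67.93, 69.73) followed, and Wnt4 had the opposite pattern, with 253.63 in SCD BAT and 73.97 in HFD WAT.

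Smaller numbers were found in the remaining lists. Of 29 nuclear receptor genes the retinoid X receptors Rxra (116.19 in HFD BAT, 64.17 in SCD WAT) and Rxrg (60.89, 85.82) had one. Of 17 circadian clock genes the repressor gene Cry2 (65.11, 56.35) and the clock output factor gene Dbp (54.41, 61.75) did. Of 20 genes of lipolysis and fatty acid oxidation, Plin5, a lipid droplet coat protein gene, did (53.78, 63.89).
Of 26 genes of TNF and NF-kB inflammation, the TNF receptor gene Tnfrsf1a scored 55.86 in HFD BAT and 56.24 in SCD WAT. The endothelial receptor gene Tie1 scored 113.06 and 55.39 and Vwf, the gene of von Willebrand factor, 64.85 and 57.47, and no macrophage marker of 13 did, and the part of cell composition in these lists was not tested. All of the regions named for these lists were weak, with a lower score under 70.

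No BAT-gained/WAT-lost region lay at a promoter of 59 MAPK signalling genes, 20 Hippo signalling genes or 14 housekeeping genes. At the share of 3.88% among all genes, lists of this size would hold only a few. In MAPK signalling 58 of the 59 had some merged region. There Map2k1 (75.1 in SCD BAT, 160.75 in HFD WAT) and Dusp3 (128.24, 156.23) had the opposite pattern (3.39%, against 2.14% of all genes). Stk4 among the 20 Hippo genes (134.76 in SCD BAT, 61.3 in HFD WAT) and Sdha among the 14 housekeeping genes (67.37, 73.94) had it too. The opposite pattern was thus not particular to MAPK signalling. Map3k5, Map3k14, Ppp3cc, Hspa1a, Vegfa, Dusp2 and Met, which the study discusses, had merged regions at their promoters but neither of the 2 patterns.

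Among all promoters, the strongest BAT-gained/WAT-lost region after 9230019H11Rik was that of Tiam1, encoding a Rac activator, with 303.21 in HFD BAT and 194.36 in SCD WAT, in a perfect tandem repeat of a 50-base period. Ctdsp1 (186.88, 266.44), Bptf (396.03, 174.41), the gene of a chromatin remodelling factor subunit, and Stab1 (240.06, 168.45), a scavenger receptor gene, came next. The strongest BAT-lost/WAT-gained regions included those in Gm20388 (625.88 in SCD BAT, 230.88 in HFD WAT) and over the start sites of Ywhaq (229.9, 145.37), Atg10 (181.47, 144.85) and Ranbp3 (138.23, 154.42). These 3 at start sites had an observed to expected CpG ratio of 0.715 to 0.867, against 0.785 at Bptf and 0.313 to 0.474 at the other 4 of the strongest BAT-gained/WAT-lost promoter regions.

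Along the genome the BAT-gained/WAT-lost regions were spread over all 19 autosomes, with some local clusters. They were 3.33% of merged regions on chromosome 6 and 5.41% on chromosome 17, the lowest and highest shares, and per length most frequent on chromosomes 17, 4 and 5, at 1.60, 1.58 and 1.56 per Mb. In the densest window of 1 Mb, chr4:151000001-152000000, 20 of 146 merged regions were of this pattern. Camta1, a calmodulin-binding transcription activator gene that reaches into this window, held 13 among its 82 merged regions over 802 kb.
Altogether 1372 protein-coding genes held at least 1 BAT-gained/WAT-lost region and 50 held at least 3, against 459 and 1 for the BAT-lost/WAT-gained regions. The sets differ in size, at 2646 and 866 regions, so these gene counts show no difference in the share of regions within genes. Fbln2, an extracellular matrix gene, held 4 of its 9 merged regions and Ccdc85c 6 of 19. The highest count, 32 of 533, was in Gm20388, a gene model of 4435 kb on chromosome 8 that spans many other genes.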

How the data were processed

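Per the labels and the study's methods, chromatin was fixed with 1% formaldehyde for 8 min, and the authors checked and trimmed reads with FastQC and Trim Galore, mapped them with Bowtie2 2.4.2 (mm9), discarded multi-mapping reads and called peaks with MACS2. The methods do not state how the inputs were used. Each deposited peak list gives a position and a score, read from its range as 10 times the negative log10 of p. Depth is unknown.

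Autosomal peaks with a score of at least 50 in the 4 H3K9me2 lists were merged where they overlapped or touched, and each region was classed by the lists with a peak. Position used GENCODE vM1 protein-coding genes and bases the NCBIM37 genome (mm9), outside promoters by the middle of the region. Shares have exact (Clopper-Pearson) 95% intervals. With 1 library per group no test between diets was run. Named regions were the 10 with the highest lower score, the 3 widest, up to 10 with the same pattern in H3K9me3 and those at promoters of listed genes, with 5 of the reverse pattern. Further ones (strong promoters, dense windows, genes with many regions) were named after their values were seen. The regions and lists were chosen with earlier results of these data known. Merging was tested on simulated data and against bedtools 2.31.1. Python 3.11.15, NumPy 2.4.6, SciPy 1.17.1 and matplotlib 3.10.9 were used. Alternatives were the lowest score, equal list lengths, merging within 1 kb, stricter presence or absence, promoter definitions and leaving out tandem repeats. Some regions and sequences that these rules pick are not reported here.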

Additional observations from a re-analysis of the deposited data

Results flagged for a closer look

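The diets stood in opposite order in the 2 tissues at 2646 autosomal regions, with an H3K9me2 peak in HFD and not SCD BAT and in SCD and not HFD WAT, and in the reverse order at 866. With 1 library of each kind the difference between tissues was not tested. Of these 866 regions, 386 (44.6%) held an SCD WAT peak with a score under 50, which the comparisons leave out, whereas none of the BAT-gained/WAT-lost regions could hold such a peak in SCD BAT or HFD WAT, whose lists end at 50. On chromosome X, which the autosomal comparisons leave out, 20 of 1512 merged regions (1.32%) had the BAT-gained/WAT-lost and 71 (4.70%) the BAT-lost/WAT-gained pattern, so their order there was opposite to that on the autosomes (4.43% and 1.45%).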

How the results depend on the processing

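No paired analysis was possible because each diet, tissue and mark had 1 library. The BAT-gained/WAT-lost count of 2646 was 1184 where peaks needed a score of 80, 5962 with peaks as deposited and 1661 with equal numbers of peaks, and the BAT-lost/WAT-gained count of 866 was 480 with peaks as deposited, 1321 with equal numbers and 451 when a list counted as absent only with no peak of any score within 1 kb. The first count exceeded the second under every alternative run on both, but some of these could hardly have turned the order. A direct overlap of peaks follows from the merging. H3K9me2 peaks with a score under 50 are listed in SCD WAT alone. As deposited they can add to the first count and take from the second, and under the strict absence rule they can take from the second. The counts were closest with equal numbers of peaks, at 1661 and 1321.
The promoter share of BAT-gained/WAT-lost regions (30.2%) was 22.3% with promoters of 1 kb, 18.4% with 1 start site per gene, 35.1% with a score of 80 required and 33.7% without tandem repeats, and that of BAT-lost/WAT-gained regions (45.4%) was 41.7% with 1 start site per gene, 57.5% with a score of 80 required and 40.4% with merging within 1 kb.
The H3K9me3 shares in HFD BAT, SCD BAT, HFD WAT and SCD WAT were 55.9%, 12.8%, 19.6% and 11% where H3K9me3 peaks needed a score of 80. With equal numbers of H3K9me3 peaks they were 3.17% in HFD BAT, 0.491% in SCD BAT and 10.8% in HFD WAT. With H3K9me3 covering at least 50% of the region they were 61.3% in HFD BAT and 19.8% in SCD WAT, and as deposited 40.4% in SCD WAT. Without tandem repeats, an alternative chosen after seeing the data, they were 29.5% in SCD BAT, 39.6% in HFD WAT and 17.1% in SCD WAT. The tandem-repeat share (14.2%) was 22.9% at 60% agreement or in 120-base windows and 4.91% at 90%. By construction, a score of 80 or equal numbers use fewer peaks and the lists as deposited use more, and beyond this the cause of these shifts was not tested. Unknown depth, single libraries and lists of unequal length limit every share.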
